A study of Mus musculus with 3 samples.

Results

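Solute carriers are membrane proteins that move amino acids, sugars, nucleosides, metals, ions and metabolites across the plasma membrane and the membranes of organelles. The members described here are the 117 gene symbols of the solute carrier pattern (Slc, family number, a, member number) that held at least 200 unique molecular identifier (UMI) counts over all kept cell barcodes. A UMI marks 1 captured RNA molecule. The pattern fitted 346 symbols of 31053 genes, of which 124 reached the minimum, 222 stayed under it and 75 of those had no UMI. The rule left out 7 of the 124: Slc40a1, Slc11a1, Slc7a11, Slc2a1, Slc2a3, Slc16a1 and Slc16a3. Just inside the minimum were Slc27a4 with 207 UMIs and Slc25a16 with 204 UMIs, and just outside were Slc10a3 with 196 UMIs and Slc2a8 with 191 UMIs. Because members were chosen on their total, and 56.7% of kept barcodes were macrophages, carriers of macrophages reached the minimum more easily than carriers of rare cells. Of the 117 members, 4 bear the pattern in their symbol without being carriers: Slc9a3r1, Slc9a3r2, Slc7a6os and Slc4a1ap.

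The data are 3 single-cell RNA libraries with the 1 label NonDiabetic. They hold CD45+ cells, that is, cells with a surface protein of blood-derived cells, taken out of stomach muscle of female C57bl/6 mice whose age the labels leave out. No groups of mice were compared, only cell classes within the libraries. Kept barcodes numbered 498, 1105 and 1072 in replicates 1, 2 and 3, which held 5843627, 11214551 and 9614485 UMIs in sum and 9456.5, 8858 and 8204.5 UMIs at the median. Whether each library came from mice of its own is not stated in the labels, so p-values cover only variation among the 3 libraries, and that may be technical.

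Each barcode was put into a class by marker genes that are not solute carriers. Macrophages numbered 197, 640 and 681 in replicates 1, 2 and 3, dendritic cells 68, 108 and 124, and group 2 innate lymphoid cells (ILC2), tissue lymphocytes that make type 2 cytokines, 96, 160 and 116. T or NK cells numbered 16, 24 and 9, and stromal cells 41, 8 and 10. Profiles of fewer than 10 cells were not used, so T or NK cells rest on replicates 1 and 2 and stromal cells on replicates 1 and 3. The median depth was 8792 UMIs in macrophages, 15973.5 in dendritic cells, 7169 in ILC2, 6800 in T or NK cells and 14112 in stromal cells. Stromal cells went against the sort: their level of Ptprc, which encodes CD45, was 4.60 counts per 1000000 UMIs (CPM), beside 470 CPM in macrophages. The T or NK cells also carried 9 of 10 markers of the ILC2 list at a summed 1941 CPM. In turn, ILC2 carried 8 of 8 markers of the T cell list at a summed 726 CPM. That list stood at 2894 CPM in T or NK cells and 4.89 CPM in macrophages. Mast cells carried 6 of 10 markers of the ILC2 list at a summed 2984 CPM. C1qa, C1qb and C1qc, complement genes of macrophages, stood in ILC2 at 0.682%, 0.755% and 0.899% of their macrophage level. They stood at 0.531% to 1.81% in dendritic cells, at most 0.896% in T or NK and stromal cells, 1.29% to 1.72% in mast cells and 1.82% to 3.25% in B cells. Apoe, a lipid carrier protein abundant in macrophages, stood at 0.965% in ILC2, 15.1% in mast cells and 19.8% in monocytes.

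Families of carriers divide the work by place and cargo. Carriers of the plasma membrane take up amino acids, nucleosides or lactate, those of the Slc25 family serve the inner mitochondrial membrane, and a further set exports digestion products from lysosomes. Macrophages are known for heavy traffic through lysosomes, since they digest engulfed cells and return amino acids, nucleosides and iron to the cytosol.

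Members held 133609 UMIs in all, with a median of 586 UMIs per member. The 3 with most, Slc25a3, Slc38a2 and Slc25a5, took 23.9% of these, and the 10 with most took 45.7%. By family number, 21 members were amino acid and peptide carriers, 28 mitochondrial carriers, 20 zinc and metal carriers, 14 inorganic ion carriers, 14 carriers of monocarboxylates, organic ions, vitamins and lipids, 5 sugar carriers, 5 nucleotide-sugar carriers and 3 nucleoside carriers. The summed level of all members was 6048, 5367 and 5144 CPM in macrophages in replicates 1, 2 and 3, 5018, 4198 and 4012 CPM in dendritic cells, and 5688, 4679 and 4316 CPM in ILC2. Replicate 1 was the highest library in each of these classes, every macrophage library was above every dendritic cell library, and ILC2 overlapped with both. The gap between macrophages and dendritic cells was narrow (5144 against 5018 CPM). These sums lack the scaling used in the tests below, and their order was not tested. T or NK cells had 5529 and 3929 CPM, and stromal cells 4072 and 4172 CPM.

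The make-up of this sum differed more than its size. Nucleoside carriers came to 208, 181 and 236 CPM in macrophages, against 87.4, 31.5 and 70.1 CPM in dendritic cells and 34.5, 12.2 and 17.03 CPM in ILC2. Macrophages did not overlap with either class. Zinc and metal carriers averaged 659 ± 98.1 CPM in macrophages, 503 ± 122 CPM in dendritic cells and 270 ± 82.8 CPM in ILC2 (SD, n = 3 each). Mitochondrial carriers summed to 1392 ± 38.3 CPM in macrophages, 1525 ± 64.5 CPM in dendritic cells and 1772 ± 262 CPM in ILC2 (SD, n = 3 each). The place of ILC2 rested on 1 gene, the phosphate carrier Slc25a3: without it, a sum formed after the values were seen, the group came to 1029, 979 and 993 CPM in macrophages, 1126, 987 and 963 CPM in dendritic cells and 904, 806 and 749 CPM in ILC2. In these levels, which lack the scaling used in the tests below, ILC2 were then below every library of both other classes. This order of the sums was not tested.

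**Figure D1:**
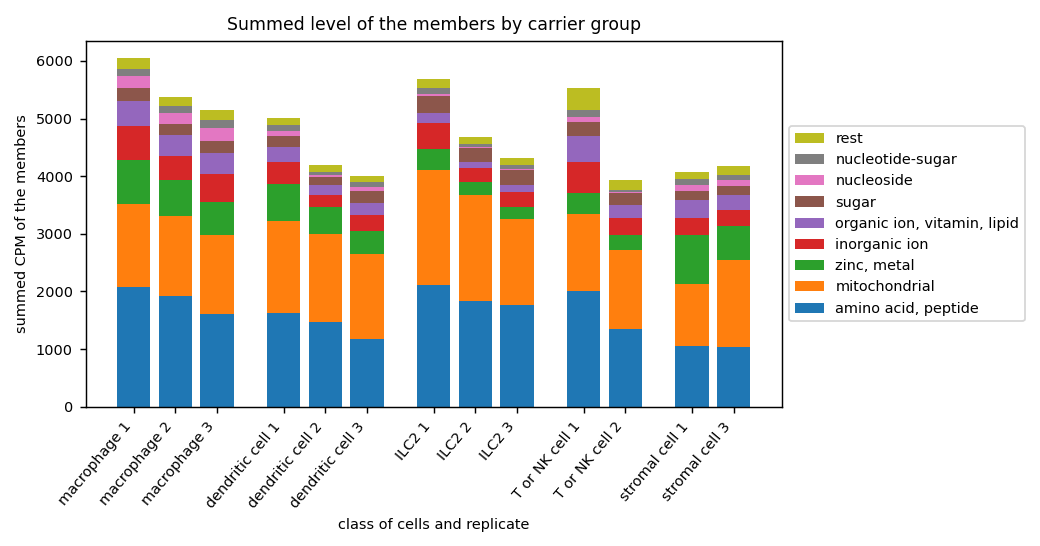
Summed level of the 117 members in CPM for each class and library (replicate number after the class name), stacked by carrier group; "rest" holds the other families and the 4 symbols that are not carriers. The nucleoside segment reaches 181 to 236 CPM in macrophages and at most 34.5 CPM in ILC2, while the mitochondrial segment is tallest in ILC2 of replicate 1.

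Which class carried each member most was first described by rank. Among macrophages, dendritic cells and ILC2, the 3 classes with enough cells in every library, 56 members were highest in macrophages in all 3 libraries, 15 in ILC2 and 10 in dendritic cells. For the other 36 the leading class differed between libraries, so which class led them is within the spread. Their lower places can still be apart, as for Slc15a3, 1 of the 36, which was far lower in ILC2. Such ranks were not formed for all genes, and the choice of members on total UMIs favours macrophages. The counts of leading classes therefore describe the members only. All 3 nucleoside carriers, 13 of 20 zinc and metal carriers, and 8 of 14 carriers of monocarboxylates, organic ions, vitamins and lipids were highest in macrophages in every library. No metal carrier was highest in ILC2 in every library, while 3 of 5 sugar carriers were. Among these is Slc5a3, which shares its strand and position with Mrps6. With T or NK, stromal, mast and B cells ranked as well, by the mean over libraries with at least 10 cells (only 1 for mast cells and for B cells), macrophages led 40 of the 117 members, stromal cells 22, mast cells 17, T or NK cells 16, dendritic cells 11, ILC2 9 and B cells 2. Of the 20 zinc and metal carriers, stromal cells then led 8, macrophages 5 and mast cells 4, while all 3 nucleoside carriers were still led by macrophages.

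The classes were then compared by counts summed per class and library, with the quasi-likelihood test of edgeR and the library as a blocking term. p-values were adjusted by Benjamini-Hochberg across every gene tested, and a call is an adjusted p under 0.05. Against ILC2, 56 members were higher and 21 lower in macrophages of 117 tested, beside 26.7% of all genes tested that were higher, 21.8% lower and 48.5% called in either direction. Against dendritic cells, 39 were higher and 15 lower, beside 19.2% of all genes higher, 15.6% lower and 34.8% called. Against stromal cells, 41 were higher and 16 lower, beside 19.7% of all genes higher, 16.5% lower and 36.2% called. Against T or NK cells, 27 were higher and 6 lower, beside 14.7% of all genes higher, 10.5% lower and 25.2% called, so the members' share of 28.2% was near the background. The median log2 fold change of macrophages over ILC2 was 0.77 over the members, or 0.74 with members at no count set to their bound, beside 0.09 over all genes. For macrophages over dendritic cells the medians were 0.28 over the members and 0.09 over all genes. Members were chosen on their total, which favours macrophages, and the background genes were not matched to them for counts, here or below. The part of this choice in the shares and medians was not tested. Without the library block, 13 members were lower against ILC2 and 8 against dendritic cells. Without replicate 1 the calls against stromal cells numbered 18, and without replicate 1 or replicate 2 those against T or NK cells numbered 18 each. Of the 222 symbols under the minimum, 18 could be tested, and 3 of them were higher and 2 lower in macrophages than in ILC2, and likewise than in dendritic cells. Against the smaller classes edgeR called none of them higher in macrophages: 0 were higher and 5 lower than in stromal cells, 0 higher and 2 lower than in T or NK cells and, of 12 tested, 0 higher and 6 lower than in mast cells. The higher ones at an unadjusted p under 0.05 numbered 1, 1 and 0, and DESeq2 called 0 in each. Against the smaller classes these counts went away from macrophages, while those of the members went toward them. These symbols were chosen for a total under the minimum, which disfavours macrophages, and few of them could be tested. The part of both choices in the directions was not tested, so no conclusion is drawn from the contrast with the members.

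**Figure D2:**
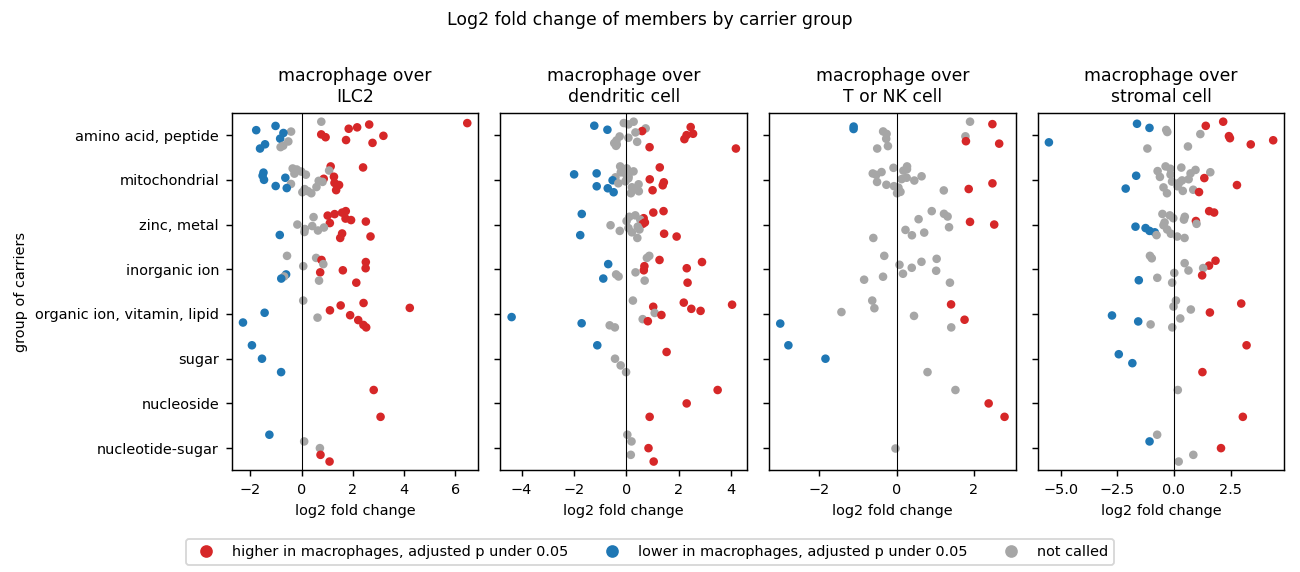
Log2 fold change of macrophages over ILC2, dendritic cells, T or NK cells and stromal cells for members of 8 carrier groups, 1 point per member, coloured by call (red higher, blue lower, grey not called). Points are drawn only where both classes held more than 3 UMIs, which leaves 102, 110, 68 and 91 of 110 members; the 2 nucleoside carriers drawn against ILC2 lie at 2.82 and 3.08.

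Amino acid carriers of the lysosome and plasma membrane formed the largest group by UMIs, with 33.97% of the total. Against ILC2, 10 of its 21 members (47.6%) were higher in macrophages and 6 (28.6%) lower, beside 26.7% and 21.8% of all genes. Against dendritic cells the counts were 7 (33.3%) and 2 (9.52%), beside 19.2% and 15.6% of all genes. Slc15a3, which carries histidine and peptides out of lysosomes, had 166, 235 and 154 CPM in macrophages, 170, 216 and 140 CPM in dendritic cells and 2.03, 1.87 and 1.31 CPM in ILC2. Macrophages and dendritic cells overlapped and both lay far above ILC2. Macrophages over ILC2 gave a log2 fold change of 6.47 ± 0.33 (SE, edgeR adjusted p = 2.1e-14), and the ILC2 level was 0.927% of that in macrophages, close to the background given by C1qa, C1qb and C1qc. Over dendritic cells it was -0.09 ± 0.16 (SE, edgeR adjusted p = 0.69). Within dendritic cells, Slc15a3 had 185, 278 and 178 CPM in cells of the cDC2 list, against 30.1, 59.2 and 40.1 CPM in cells of the cDC1 list; the lists mark the 2 conventional kinds of dendritic cell, and their difference was not tested.

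Slc43a2, a carrier of large neutral amino acids on chromosome 11 (75531694 to 75577575, plus strand, build GRCm38), had 129, 94.7 and 141 CPM in macrophages, 37.1, 11.4 and 26.3 CPM in dendritic cells and 52.8, 19.7 and 27.5 CPM in ILC2. Macrophages were above both classes in every library. The log2 fold change of macrophages was 2.22 ± 0.22 over dendritic cells, 1.73 ± 0.23 over ILC2, 1.79 ± 0.42 over T or NK cells and 4.38 ± 0.48 over stromal cells (SE), each called by edgeR. Slc6a6, the taurine carrier, had 318, 309 and 263 CPM in macrophages, 229, 221 and 151 CPM in dendritic cells and 60.9, 30.9 and 26.2 CPM in ILC2. It was higher in macrophages than in ILC2 by a log2 fold change of 2.77 ± 0.24 (SE, edgeR adjusted p = 3.4e-10), while the difference from dendritic cells was not called (edgeR adjusted p = 0.10). Slc7a7, a light chain for cationic amino acid exchange, had 24.8, 25.7 and 34.8 CPM in macrophages and a single UMI in ILC2, a ratio of 83.0 (95% counting interval 14.8 to 3288).

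A set of 11 members was called higher in macrophages against all 4 classes: Slc43a2, Slc29a3, Slc16a10, Slc25a37, Slc37a2, Slc25a45, Slc16a7, Slc36a1, Slc7a7, Slc38a7 and Slc13a3. The share of all genes called against all 4 classes, higher or lower, was not counted, so such numbers describe the members only. This set leaned on single libraries: without replicate 1 it held 2 of the 11 (Slc43a2 and Slc16a7), without replicate 2 it held 3 (these and Slc37a2), and without replicate 3 it held 8. Of the 11, 9 had a promoter in the RefSeq table (build GRCm38.p6, 250 bases before to 50 after the start), and 3 of the 9 held the palindrome CACGTG, the core read by basic helix-loop-helix factors such as TFEB, a known activator of lysosomal genes. Searched on both strands, CACGTG stood in 16 of 89 member promoters (18.0%), in 10.5% of the promoters of the other genes tested and in 7.24% of all 27025 promoters of that length. GAGGAAGT, a motif of the macrophage factor PU.1, stood in 2 of 89 member promoters (2.25%), in 3.65% of those of the other genes tested and in 3.28% of all promoters. TGATGNAAT, a motif of the amino acid response, stood in 0 of 89, in 0.44% of those of the other genes tested and in 0.97% of all promoters. Of the 9 promoters, only the 3 that held CACGTG are shown, so the motif decided the choice. Capitals mark CACGTG, and a match describes letters and not binding.
Slc36a1, chr11:55204090-55204389, plus strand: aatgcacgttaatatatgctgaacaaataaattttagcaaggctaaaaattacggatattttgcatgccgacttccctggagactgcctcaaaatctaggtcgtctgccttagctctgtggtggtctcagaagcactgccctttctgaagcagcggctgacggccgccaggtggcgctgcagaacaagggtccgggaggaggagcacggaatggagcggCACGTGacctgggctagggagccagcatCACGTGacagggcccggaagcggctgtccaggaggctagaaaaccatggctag
Slc38a7, chr8:95853442-95853741, minus strand: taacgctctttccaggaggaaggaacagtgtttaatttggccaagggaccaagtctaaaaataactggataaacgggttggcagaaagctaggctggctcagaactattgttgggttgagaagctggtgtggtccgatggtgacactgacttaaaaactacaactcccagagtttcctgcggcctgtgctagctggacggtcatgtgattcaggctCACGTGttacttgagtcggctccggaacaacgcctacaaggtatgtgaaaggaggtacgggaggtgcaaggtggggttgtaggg
Slc13a3, chr2:165473148-165473447, minus strand: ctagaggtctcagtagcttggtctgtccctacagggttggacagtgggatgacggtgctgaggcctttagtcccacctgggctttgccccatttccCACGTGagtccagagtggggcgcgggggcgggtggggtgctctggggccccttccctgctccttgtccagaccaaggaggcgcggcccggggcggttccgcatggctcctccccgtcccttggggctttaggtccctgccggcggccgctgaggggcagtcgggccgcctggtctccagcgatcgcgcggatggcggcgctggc

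Slc36a1, which exports small amino acids with protons from lysosomes and whose promoter holds the palindrome at 2 places, had 43.6, 24.6 and 28.7 CPM in macrophages, 8.89, 4.35 and 3.13 CPM in dendritic cells and 12.2, 4.68 and 2.62 CPM in ILC2. Its log2 fold change of macrophages was 2.46 ± 0.33 over dendritic cells and 2.17 ± 0.36 over ILC2 (SE, each called by edgeR). Slc38a7, a glutamine exporter of lysosomes, had 38.6, 27.7 and 27.7 CPM in macrophages, 5.19, 4.89 and 6.26 CPM in dendritic cells and 1.02, 0.936 and 7.86 CPM in ILC2. No library of either class reached the lowest macrophage library for these 2 genes. Slc13a3, a sodium-coupled carrier of dicarboxylates such as succinate, had 9.38, 34.01 and 23.8 CPM in macrophages, 5.19, 3.26 and 4.38 CPM in dendritic cells and 1 UMI in ILC2. Its macrophage level was lowest in replicate 1 and still above dendritic cells of that library, with a log2 fold change of 2.20 ± 0.41 over dendritic cells (SE, edgeR adjusted p = 0.00012). Of all gated UMIs of Slc13a3, 94.4% were in macrophages.

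A second set of amino acid carriers was lower in macrophages. Slc38a1, a sodium-coupled carrier of glutamine, had 143, 215 and 114 CPM in macrophages, 288, 243 and 166 CPM in dendritic cells, 499, 495 and 390 CPM in ILC2, and 546 and 301 CPM in T or NK cells. ILC2 and T or NK cells lay above every macrophage library, and stromal cells held 3 UMIs. The log2 fold change of macrophages was -1.78 ± 0.21 over ILC2 (SE, edgeR adjusted p = 6.5e-08) and -1.11 ± 0.26 over T or NK cells (SE, edgeR adjusted p = 0.0023, or 0.27 without replicate 1). Thinned to 1000 UMIs per cell, 13.04% of macrophages, 18.7% of dendritic cells and 33.3% of ILC2 held a Slc38a1 UMI; unthinned, the shares were 47.0%, 80.3% and 88.2%. Slc38a2, a carrier of the same kind, had 565, 366 and 367 CPM in macrophages and 562, 539 and 711 CPM in ILC2, a log2 fold change of -0.71 ± 0.20 (SE, edgeR adjusted p = 0.0044) whose adjusted p was 0.057 without replicate 2, 0.17 without replicate 3 and 0.056 without the library block; in replicate 1 the classes had nearly the same level. Slc1a5, a glutamine exchanger, was the 1 member called lower in macrophages against all 4 classes, with 34.8, 40.4 and 27.5 CPM in macrophages, 100, 66.3 and 55.1 CPM in dendritic cells, and 69.0, 67.4 and 48.5 CPM in ILC2. Its log2 fold changes were -1.22 ± 0.20 over dendritic cells, -1.02 ± 0.21 over ILC2, -1.63 ± 0.28 over stromal cells and -1.11 ± 0.36 over T or NK cells (SE); without replicate 1 the last 2 lost their call (edgeR adjusted p = 0.37 and 0.26), and without replicate 2 that over T or NK cells did (0.077).

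Slc7a8 and Slc3a2 form one exchanger, Slc3a2 being the heavy chain that light chains such as Slc7a8, Slc7a5 and Slc7a7 need to reach the surface. Slc7a8, on chromosome 14 (54722209 to 54781946, minus strand), had 94.9, 51.96 and 55.6 CPM in macrophages, 5.19, 0.544 and 4.38 CPM in dendritic cells and 261, 145 and 139 CPM in ILC2. The 3 classes did not overlap: ILC2 were highest and dendritic cells lowest in every library. The log2 fold change of macrophages was -1.63 ± 0.20 over ILC2 (SE, edgeR adjusted p = 2.6e-07) and 4.19 ± 0.33 over dendritic cells (SE, edgeR adjusted p = 2.2e-10). Slc3a2 had 164, 265 and 156 CPM in macrophages, 167, 206 and 120 CPM in dendritic cells and 302, 337 and 257 CPM in ILC2. It was lower in macrophages than in ILC2 by a log2 fold change of -0.84 ± 0.19 (SE, edgeR adjusted p = 0.00052, or 0.053 without the library block), though the ranges overlapped, and it was not called against dendritic cells (edgeR adjusted p = 0.77).

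**Figure D3:**
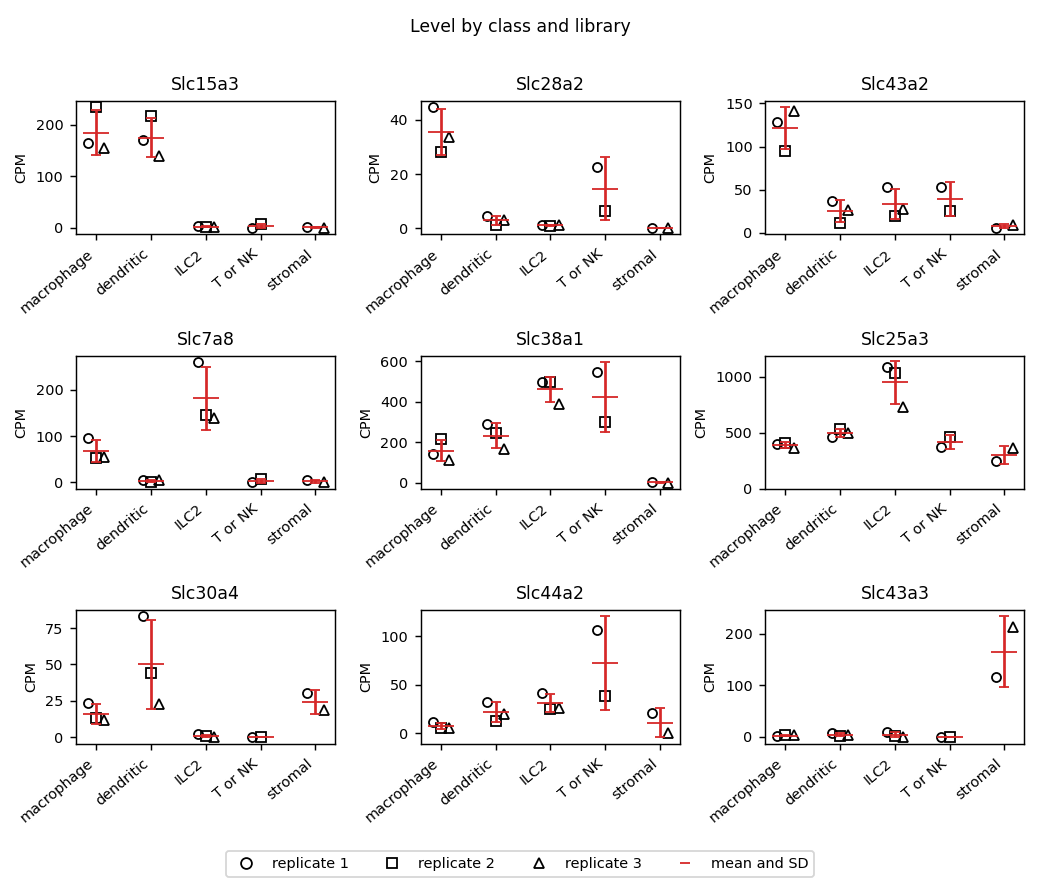
Level in CPM of 9 members, picked after their values were seen to show each pattern, in 5 classes; open symbols are libraries and red bars the mean and SD over the libraries with at least 10 cells. Slc15a3 is high in macrophages and dendritic cells, Slc28a2 and Slc43a2 in macrophages, Slc7a8, Slc38a1 and Slc25a3 in ILC2, Slc30a4 in dendritic cells, Slc44a2 in T or NK cells and Slc43a3 in stromal cells (116 and 213 CPM).

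Nucleoside carriers were the group with the fewest members and the plainest pattern. All 3 were higher in macrophages than in ILC2 and than in dendritic cells, beside 26.7% and 19.2% of all genes. Slc28a2, which concentrates purine nucleosides with sodium, had 44.7, 27.97 and 33.8 CPM in macrophages, 4.45, 1.09 and 3.13 CPM in dendritic cells, 1 UMI per library in ILC2 and no UMI in stromal cells. Over dendritic cells the log2 fold change was 3.50 ± 0.35 (SE, edgeR adjusted p = 1.7e-08), and the ratio to ILC2 was 30.6 (95% counting interval 10.4 to 149). T or NK cells held 22.8 and 6.40 CPM, and the difference from them was not called (edgeR adjusted p = 0.082). The related Gm14085, named Slc28a2b in RefSeq, held 3 UMIs in all kept barcodes beside 521 of Slc28a2.

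Slc29a1, the equilibrative nucleoside carrier of the plasma membrane, had 64.0, 86.8 and 113 CPM in macrophages, 20.7, 7.61 and 21.9 CPM in dendritic cells, 15.2, 5.62 and 13.1 CPM in ILC2, and 83.0 and 64.9 CPM in stromal cells. Macrophages were above dendritic cells and ILC2 and overlapped with stromal cells. Its log2 fold change was 2.31 ± 0.28 over dendritic cells and 2.82 ± 0.33 over ILC2 (SE, each called by edgeR), and it was not called over stromal cells (edgeR adjusted p = 0.76). Slc29a3, its relative in the lysosome membrane, had 99.3, 66.6 and 89.3 CPM in macrophages, 62.2, 22.8 and 45.1 CPM in dendritic cells and 18.3, 5.62 and 2.62 CPM in ILC2. All macrophage libraries were above all dendritic cell libraries, which were above all ILC2 libraries. It gave a log2 fold change of 3.08 ± 0.33 over ILC2 and 0.89 ± 0.23 over dendritic cells (SE, each called by edgeR); over dendritic cells the adjusted p was 0.052 without replicate 2 and 0.091 without the library block.

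Among carriers of monocarboxylates, organic ions, vitamins and lipids, 10 of 14 members (71.4%) were higher and 2 (14.3%) lower in macrophages than in ILC2. For all genes the shares were 26.7% and 21.8%. Against dendritic cells, 7 (50%) were higher and 2 (14.3%) lower, beside 19.2% and 15.6% of all genes. Slc16a10, a carrier of aromatic amino acids, had 87.7, 68.7 and 61.0 CPM in macrophages, 2.96, 3.26 and 5.01 CPM in dendritic cells and 13.2, 9.36 and 13.1 CPM in ILC2. This gave a log2 fold change of 4.05 ± 0.31 over dendritic cells and 2.42 ± 0.28 over ILC2 (SE, each called by edgeR). Slc16a7, a carrier of pyruvate and lactate, had 52.4, 30.8 and 35.7 CPM in macrophages, 8.15, 4.89 and 5.63 CPM in dendritic cells and 1.02, 0.936 and 3.93 CPM in ILC2. For both genes every macrophage library lay above every library of these 2 classes. Slc16a7 had no UMI in T or NK cells, which puts macrophages at least 4.14-fold higher against 3 counts over that class.

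Slc44a2, a choline transporter-like protein, ran against its group, with 11.03, 5.40 and 5.66 CPM in macrophages, 32.6, 12.5 and 20.02 CPM in dendritic cells, 41.6, 25.3 and 26.2 CPM in ILC2, and 106 and 38.4 CPM in T or NK cells. All libraries of these classes were above all macrophage libraries. The log2 fold change of macrophages was -1.71 ± 0.29 over dendritic cells, -2.29 ± 0.30 over ILC2 and -3.00 ± 0.49 over T or NK cells (SE, each called by edgeR). Its relative Slc44a1, a choline carrier, had 59.6, 46.4 and 43.98 CPM in macrophages, 27.4, 20.7 and 26.9 CPM in dendritic cells, 13.2, 8.43 and 6.55 CPM in ILC2, and 171 and 121 CPM in stromal cells. Macrophages lay between stromal cells, which were highest, and the other classes given. The log2 fold change of macrophages was 2.21 ± 0.29 over ILC2 (SE, edgeR adjusted p = 4.8e-07) and -1.58 ± 0.26 over stromal cells (SE, edgeR adjusted p = 2.6e-05, or 0.14 without replicate 1). Slc27a3, of the fatty acid transport family, was mainly found in dendritic and stromal cells, with 1.66, 1.27 and 1.83 CPM in macrophages, against 45.2, 21.8 and 31.3 CPM in dendritic cells and 9.06 and 27.8 CPM in stromal cells. Macrophages over dendritic cells gave a log2 fold change of -4.38 ± 0.37 (SE, edgeR adjusted p = 2.5e-09).

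Against ILC2, 12 of 20 metal carriers (60%) were higher in macrophages and 1 (5%) lower, beside 26.7% and 21.8% of all genes. Against dendritic cells, 7 (35%) were higher and 2 (10%) lower, beside 19.2% and 15.6% of all genes. Against stromal cells, 3 (15%) were higher and 4 (20%) lower, near the 19.7% and 16.5% of all genes. Slc39a1, a zinc importer, had 154, 93.6 and 103 CPM in macrophages, 70.4, 61.5 and 53.8 CPM in dendritic cells, 24.4, 12.2 and 18.3 CPM in ILC2, and 201 and 92.7 CPM in stromal cells. Macrophages were above dendritic cells and ILC2 and overlapped with stromal cells. It had a log2 fold change of 2.51 ± 0.28 over ILC2 (SE, edgeR adjusted p = 2.8e-08) and 0.71 ± 0.21 over dendritic cells (SE, edgeR adjusted p = 0.010, or 0.11 without the library block). Slc11a2, which carries ferrous iron out of endosomes, had 55.7, 87.2 and 41.8 CPM in macrophages, 17.04, 30.5 and 13.1 CPM in dendritic cells and 19.3, 15.9 and 13.1 CPM in ILC2. Its log2 fold change was 1.43 ± 0.23 over dendritic cells and 1.72 ± 0.27 over ILC2 (SE, each called by edgeR), and Slc25a37, which imports iron into mitochondria, had 1.40 ± 0.24 and 1.46 ± 0.27 in the same comparisons (SE, each called by edgeR).

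Slc30a4, which loads zinc into vesicles, was a dendritic member, with 23.7, 13.03 and 11.7 CPM in macrophages, 83.0, 44.05 and 23.2 CPM in dendritic cells and 3 UMIs in all of ILC2. Dendritic cells were higher within each library, though their lowest library lay just under the highest macrophage library, and the log2 fold change of macrophages was -1.70 ± 0.23 (SE, edgeR adjusted p = 1.8e-06). Slc41a1, a magnesium carrier, had -1.76 ± 0.21 in the same comparison (SE, edgeR adjusted p = 2.3e-07). Slc39a13, a zinc carrier of the secretory path, was a stromal member, with 18.2, 17.6 and 18.2 CPM in macrophages, against 58.9 and 64.9 CPM in stromal cells. Macrophages over stromal cells gave -1.70 ± 0.34 on the log2 scale (SE, edgeR adjusted p = 0.00021, or 0.15 without replicate 1).

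Mitochondrial carriers, 28 members with 29.1% of the UMIs, had calls in both directions: 8 (28.6%) were higher and 6 (21.4%) lower in macrophages than in ILC2, and 5 (17.9%) higher and 6 (21.4%) lower than in dendritic cells. The shares against ILC2 were near those of all genes given above. Slc25a3, the phosphate carrier that feeds ATP synthesis, had 404, 409 and 363 CPM in macrophages, 466, 533 and 500 CPM in dendritic cells and 1090, 1033 and 733 CPM in ILC2. ILC2 lay above the others in every library, with a log2 fold change of macrophages over ILC2 of -1.47 ± 0.17 (SE, edgeR adjusted p = 9.5e-08). Slc25a5, an ADP/ATP exchanger, had 265, 309 and 302 CPM in macrophages and 253, 254 and 238 CPM in ILC2, and the difference was not called (edgeR adjusted p = 0.91). Its relative Slc25a4 had 46.3, 76.6 and 77.6 CPM in macrophages, against 169 and 510 CPM in stromal cells, a log2 fold change of -2.13 ± 0.24 (SE, edgeR adjusted p = 6.0e-08).

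Slc25a20 exchanges carnitine for acylcarnitine, the step that brings fatty acids into mitochondria. It had 27.03, 13.03 and 18.2 CPM in macrophages, against 78.6, 63.6 and 55.1 CPM in dendritic cells, a log2 fold change of -1.99 ± 0.26 (SE, edgeR adjusted p = 8.2e-07). The 2 classes did not overlap. Within dendritic cells it had 195, 139 and 103 CPM in cells of the cDC1 list, against 65.8, 37.0 and 38.3 CPM in cells of the cDC2 list, a difference that was not tested.

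Sugar carriers split by member. Slc37a2, which exchanges glucose 6-phosphate for phosphate in the endoplasmic reticulum, had 50.8, 45.9 and 55.3 CPM in macrophages, 20.01, 7.07 and 21.9 CPM in dendritic cells and no UMI in any ILC2, T or NK cell, mast cell or monocyte. Macrophages did not overlap with dendritic cells, with a log2 fold change of 1.54 ± 0.27 (SE, edgeR adjusted p = 8.3e-05), and stood at least 47.4-fold higher than ILC2 against 3 counts over that class. Slc37a3, of the same family, was lower in macrophages, with 3.31, 6.52 and 10.2 CPM, against 24.4, 22.5 and 21.0 CPM in ILC2 and 45.5 and 51.2 CPM in T or NK cells. The log2 fold changes were -1.94 ± 0.32 over ILC2 and -2.79 ± 0.55 over T or NK cells (SE, each called by edgeR). Slc50a1, a sugar carrier of the SWEET family, was likewise lower in macrophages, by -1.55 ± 0.21 over ILC2 and -1.83 ± 0.37 over T or NK cells (log2 fold change, SE, each called by edgeR).

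Inorganic ion carriers were higher in macrophages than in ILC2 for 6 of 14 members (42.9%) and lower for 2 (14.3%). For all genes the shares were 26.7% and 21.8%. Slc9a9, a sodium and proton exchanger of endosomes, had 49.1, 69.4 and 79.3 CPM in macrophages, 15.6, 8.70 and 11.9 CPM in dendritic cells and 23.4, 6.55 and 10.5 CPM in ILC2. Slc12a7, a potassium and chloride cotransporter, had 47.996, 31.5 and 36.8 CPM in macrophages, 8.89, 1.63 and 4.38 CPM in dendritic cells and 8.12, 2.81 and 7.86 CPM in ILC2. Macrophages were above both classes in every library for both genes. Against T or NK cells, 0 of the 14 members were higher and 0 lower, beside 14.7% and 10.5% of all genes. Neither Slc9a9 nor Slc12a7 was thus called there, and T or NK cells had the second highest mean level of both. Slc9a9 had log2 fold changes of 2.35 ± 0.29 over dendritic cells and 2.13 ± 0.32 over ILC2, and Slc12a7 had 2.90 ± 0.33 and 2.51 ± 0.37 (SE, each called by edgeR).

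Nucleotide-sugar carriers, which supply the Golgi with sugars for glycosylation, held 5 members. Of these, 2 (40%) were higher and 1 (20%) lower in macrophages than in ILC2, beside 26.7% and 21.8% of all genes. Against dendritic cells 2 (40%) were higher and none lower, beside 19.2% and 15.6% of all genes. Of the 3 members of other families, 2 (66.7%) were higher in macrophages than in ILC2. With so few members these shares are coarse. Slc14a1, a urea carrier, had 15.999, 15.3 and 13.3 CPM in macrophages, 15.6, 5.44 and 7.51 CPM in dendritic cells and no UMI in ILC2 or stromal cells. Macrophages were at least 13.6-fold higher than ILC2 against 3 counts over that class. Slc7a6os, a neighbour gene and not a carrier, had 14.9, 12.2 and 10.5 CPM in macrophages, against 212 and 38.4 CPM in T or NK cells. Its log2 fold change of -2.98 ± 0.49 rested on the high library (SE, edgeR adjusted p = 4.0e-05, or 0.20 without replicate 1).

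A pair of members, the first with low levels, were also higher in macrophages than in dendritic cells. Slc17a5, the sialic acid exporter of lysosomes, had 16.6, 13.03 and 17.5 CPM in macrophages, against 1.48, 2.72 and 1.25 CPM in dendritic cells, a log2 fold change of 2.84 ± 0.49 (SE, edgeR adjusted p = 6.1e-05). Slc16a6, of the monocarboxylate family, had 56.8, 56.3 and 50.6 CPM in macrophages, 34.8, 26.1 and 14.4 CPM in dendritic cells, 144 and 70.4 CPM in T or NK cells and no UMI in stromal cells. Its log2 fold change of macrophages over dendritic cells was 1.03 ± 0.23 (SE, edgeR adjusted p = 0.0010), and over stromal cells the level was at least 15.6-fold higher against 3 counts over that class.

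**Figure D4:**
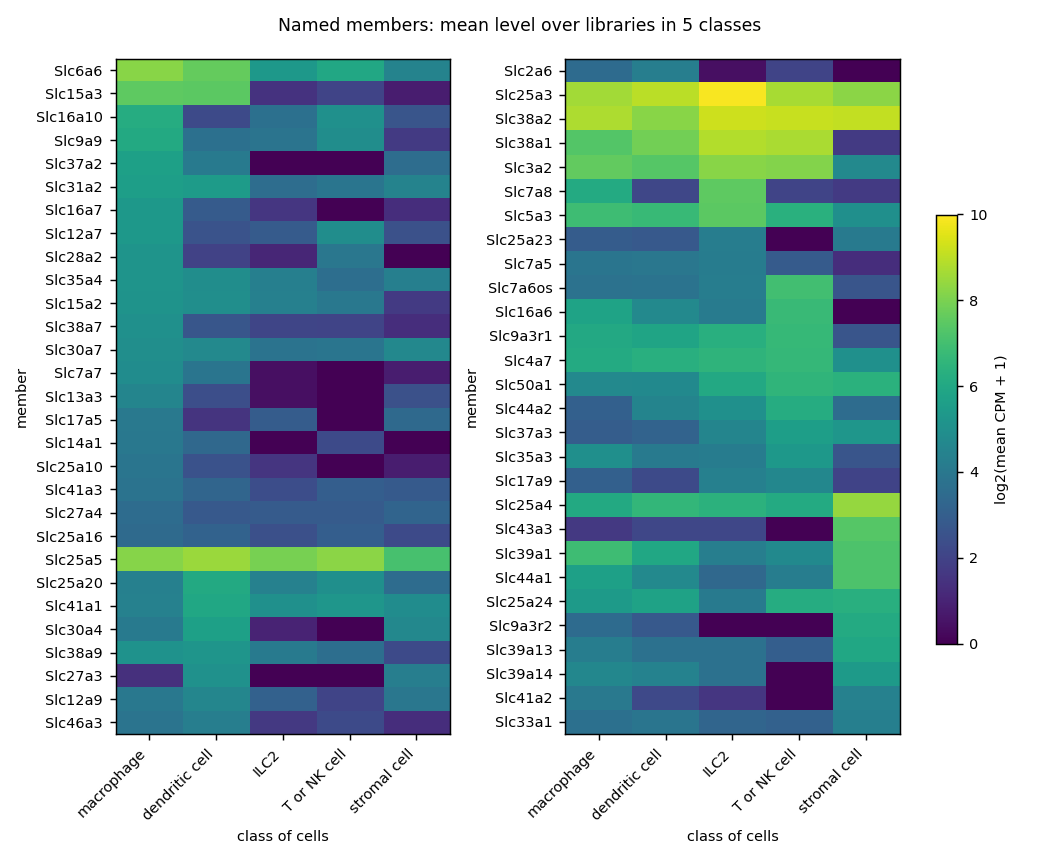
Mean level over libraries of 57 of the 58 members named by rule, as log2(CPM + 1), in 5 classes; members are grouped by the class, of the 5, with their highest mean, and within it run from high to low. Dark cells mark 0 to a few CPM, as for Slc37a2 in ILC2 and in T or NK cells, where it had no UMI.

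Small classes gave few counts. Stromal cells led Slc43a3, a nucleobase carrier, with 0.552, 2.70 and 3.17 CPM in macrophages, against 116 and 213 CPM in stromal cells, a log2 fold change of -5.53 ± 0.57 (SE, edgeR adjusted p = 2.3e-08). Mast cells and monocytes did not reach 10 cells in 2 libraries, so they were compared with profiles of at least 5 cells, a minimum set after the cell numbers were seen. Against mast cells, 16 members were higher and 3 lower in macrophages of 102 tested, beside 12% of all genes higher, 4.45% lower and 16.4% called. With size factors of DESeq2 in place of TMM, 9 were higher and 5 lower, and with DESeq2's own test 4 were higher and 8 lower. The 3 lower ones were Slc7a5, a light chain for large neutral amino acids, Slc31a2, a relative of the copper importer, and Slc5a3, the myo-inositol carrier. Slc31a2 had 45.8, 47.0 and 52.1 CPM in macrophages, against 354, 82.2 and 169 CPM in mast cells, a log2 fold change of -1.69 ± 0.39 (SE, edgeR adjusted p = 0.0012, or 0.072 without replicate 1). Slc5a3 shares its strand and position with Mrps6, its call was lost without replicate 1 (edgeR adjusted p = 0.17), and how the counting divided reads between the 2 genes is not given in the sources used here.

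Against monocytes, 8 members were higher and 1 lower in macrophages of 102 tested, beside 4.92% of all genes higher, 2.05% lower and 6.97% called. With size factors of DESeq2 in place of TMM, 6 were higher and 3 lower, and with DESeq2's own test 0 were higher and 3 lower, so the balance of directions turned with the tool. By edgeR the lower one was Slc44a2, by a log2 fold change of -3.17 ± 0.62 (SE, edgeR adjusted p = 0.00044). Slc15a3 had 166, 235 and 154 CPM in macrophages and 185 and 434 CPM in the monocytes of replicates 1 and 2, a difference that was not called (edgeR adjusted p = 0.50). With 5 and 8 monocytes in these libraries, calls depended on both: without replicate 1 it had 2 calls, none of them among the 9, and without replicate 2 it had 3.

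Macrophages were last divided by Timd4, Lyve1 and Folr2, markers of long-lived resident macrophages (TLF). Cells with at least 2 UMIs over the 3 genes were TLF-positive and numbered 85, 378 and 377, and cells with none were TLF-negative and numbered 97, 213 and 257. Of 115 members tested, 21 were higher and 4 lower in TLF-positive cells, beside 10.1% of all genes higher, 10.9% lower and 20.9% called, so the members' share of 21.7% was near the background. The count moved with the library left out: it was 38 without replicate 1, 6 without replicate 2 and 11 without replicate 3, and 8 without the library block. Marker lists of other cells moved with the division. All 8 markers of the cDC2 list were found in both sets, at a summed 132 to 321 CPM in TLF-positive and 551 to 974 CPM in TLF-negative cells. Of the 10 monocyte markers, 9 were found in TLF-positive cells (Ly6c2 was at 0) at 120 to 493 CPM and 10 in TLF-negative cells at 416 to 1105 CPM, without a gap between the sets. Of the 8 NK cell markers, Ncr1, Nkg7, Gzma and Eomes were at 0 in both sets, and the list summed to 9.54 to 55.2 CPM in TLF-positive and 91.2 to 305 CPM in TLF-negative cells. The migratory dendritic cell list was also lower in TLF-positive cells, at 16.7 to 21.8 CPM against 27.98 to 76.4 CPM in TLF-negative cells. The granulocyte list went the other way, at 144 to 206 CPM over 8 of 8 markers in TLF-positive and 38.6 to 121 CPM over 7 of 8 (S100a8 was at 0) in TLF-negative cells. The endothelial, glial and epithelial lists were likewise higher in TLF-positive cells without overlap, though none of them passed 19.7 CPM. The part of these lists in the differences was not tested.

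By group, mitochondrial carriers gave 5 of the 21 higher members, amino acid carriers 4, inorganic ion carriers 3 and nucleoside carriers 2, while amino acid carriers gave 2 of the 4 lower ones. The higher ones were 17.9% of the mitochondrial, 20% of the amino acid, 21.4% of the inorganic ion and 66.7% of the nucleoside carriers tested. For all genes the share was 10.1%. The lower ones were 10% of the amino acid carriers tested, beside 10.9% of all genes.

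Slc9a9 had 68.2, 103 and 116 CPM in TLF-positive cells, against 36.5, 29.3 and 31.2 CPM in TLF-negative cells. Slc28a2 had 71.1, 44.3 and 44.9 CPM in TLF-positive cells, against 25.3, 7.63 and 19.96 CPM in TLF-negative cells. Slc29a1 had 92.4, 121 and 139 CPM in TLF-positive cells, against 44.6, 45.4 and 79.8 CPM in TLF-negative cells. For these 3 genes the 2 sets did not overlap. The log2 fold changes were 1.48 ± 0.18 for Slc9a9, 1.5 ± 0.24 for Slc28a2 and 0.92 ± 0.15 for Slc29a1 (SE, edgeR adjusted p = 0.00047, 0.0024 and 0.0029; that of Slc29a1 was 0.083 without replicate 2). The third nucleoside carrier, Slc29a3, was not called (edgeR adjusted p = 0.091) and had 78.4 ± 13.6 CPM in TLF-positive and 89.1 ± 19.3 CPM in TLF-negative cells (SD, n = 3 each).

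Slc12a7, with a log2 fold change of 1.03 ± 0.16, Slc23a2, an ascorbate carrier, with 0.88 ± 0.15, and Slc31a1, the copper importer, with 0.89 ± 0.14, were also higher in TLF-positive cells (SE, edgeR adjusted p = 0.0017, 0.0036 and 0.0022). Without replicate 2 the adjusted p was 0.094 for Slc23a2 and 0.054 for Slc31a1. The highest log2 fold change was that of Slc9a3r2, a scaffold protein, with 1.85 ± 0.36 (SE, edgeR adjusted p = 0.0065, or 0.14 without replicate 2), on 9.95, 18.5 and 18.8 CPM in TLF-positive cells and 1.01, 2.97 and 6.94 CPM in TLF-negative cells. TLF-negative cells were higher in Slc15a3, with 102, 146 and 91.7 CPM in TLF-positive and 200, 321 and 250 CPM in TLF-negative cells. The 2 sets did not overlap, and the log2 fold change was -1.37 ± 0.14 (SE, edgeR adjusted p = 0.00026). Slc38a1 was lower in TLF-positive cells by a log2 fold change of -1.17 ± 0.17 (SE, edgeR adjusted p = 0.0014, or 0.10 without the library block), Slc2a6, of the glucose carrier family, by -2.32 ± 0.39 (SE, edgeR adjusted p = 0.0028, or 0.091 without replicate 2), and Slc4a7, a bicarbonate carrier, by -0.60 ± 0.15 (SE, edgeR adjusted p = 0.019, or 0.19 without replicate 2 and 0.25 without replicate 3). Over all dendritic cells of the cDC2 list Slc15a3 had 216 CPM and Slc38a1 had 259 CPM, and over those of the cDC1 list 47.95 CPM and 132 CPM. Among macrophages, dendritic cells and ILC2, Slc2a6 and Slc46a3 were both highest in dendritic cells in all 3 libraries. Yet Slc2a6 was lower in TLF-positive cells, while Slc46a3, given next, was higher. Whether these levels bear on the differences between the macrophage sets was not tested. Slc46a3, a carrier of the lysosome membrane, had 18.5, 15.3 and 20.3 CPM in TLF-positive and 11.1, 5.09 and 5.64 CPM in TLF-negative cells, a log2 fold change of 1.31 ± 0.29 (SE, edgeR adjusted p = 0.012, or 0.14 without replicate 2 and 0.15 without replicate 3).

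**Figure D5:**
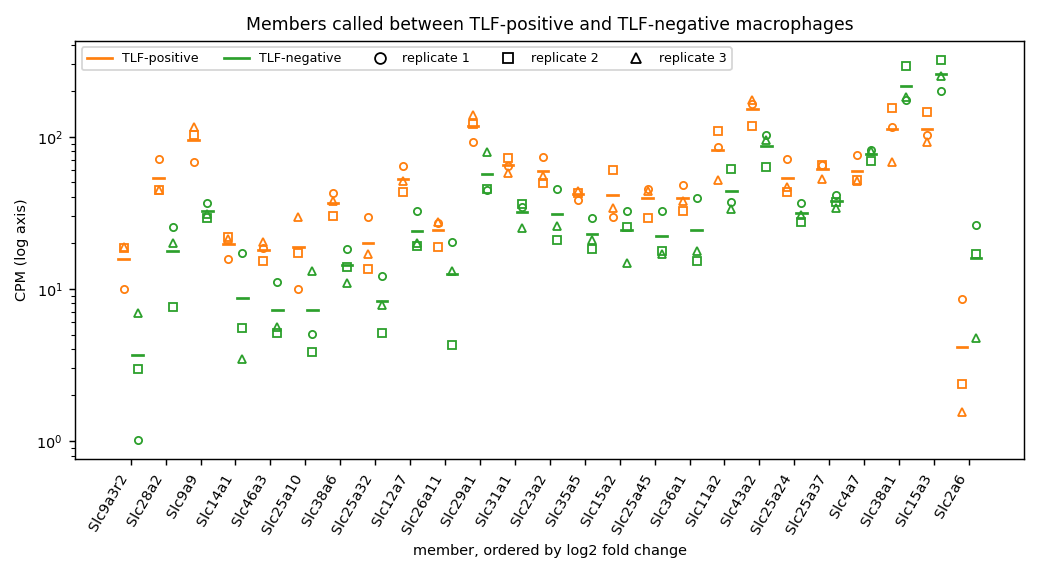
Level in CPM (log axis) of the 25 members called between TLF-positive (orange) and TLF-negative (green) macrophages, by library, with bars at the mean. Slc9a3r2, at the left, has the highest log2 fold change and Slc2a6, at the right, the lowest (1.85 and -2.32).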

How the data were processed

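The 3 libraries of the group NonDiabetic were used. The authors deposited UMI counts, not normalised, per gene and barcode, from a 3′ droplet kit, per the labels' protocols. Counting was done with Cell Ranger 3.1 against mm10, per the submitters' processing notes, and the file header of replicate 1 names software version 3.0.0 where those of the others name 3.1.0. The annotation and the strand setting of the counting: not given in the sources used here. Positions come from the reference annotation for GRCm38 (all 117 members matched), and 22 members overlap another coding gene, 3 of them on the same strand (Slc5a3 among them); Slc25a5 and Slc39a1 each have 1 pseudogene by name.

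Barcodes with at least 2000 UMIs and at most 15% mitochondrial UMIs were kept. A cell joined the class whose list of markers it matched best, with at least 3 markers found and a lead of 0.2 in the share found over the next class; there were 16 lists and 13 classes, and 290 barcodes stayed ungated (63, 117 and 110). Libraries 2 and 3 shared 2 kept barcodes and libraries 1 and 3 shared 1. Doublets were kept in the main analysis and removed by Scrublet score (scanpy 1.11.5; 4, 25 and 17 barcodes) in an alternative.

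Counts were summed per class and library from at least 10 cells and tested with edgeR 4.0.16 (R 4.3.3) by its quasi-likelihood test. TMM scaling followed filterByExpr, and the replicate number was a block, since the classes of 1 replicate come out of 1 library; this pairing is given by the design. p-values are two-sided and adjusted over all genes tested; the backgrounds leave out the marker genes (Timd4, Lyve1 and Folr2 between macrophage sets). SE is the log2 fold change over the root of F. CPM are UMIs per 1000000 of the class without TMM scaling, so levels and fitted folds are on different scales. Counts from the 3′ end do not scale with transcript length, and levels were compared between classes, not between genes. Fitted folds are printed where both classes held more than 3 UMIs, and ratios of levels with 95% counting intervals where 1 class held 1 to 3; a count of 0 allows up to 3 counts, and those intervals are exact (binomial) and cover counting error only. The code was tested on simulated data. DESeq2 1.42.0 was an alternative.

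The members and lists were chosen with earlier results of these data known. Members named by rule were the 10 with most UMIs, up to 5 per direction and comparison with the largest fold among those of 1 sign in every library, up to 5 led by each class, and those beside the minimum (58 members in all). Of these, 1 is not reported here. Slc4a1ap, Slc43a2, Slc29a1, Slc29a3, Slc36a1, Slc1a5, Slc11a2, Slc25a37, Slc25a45, Slc23a2 and Slc31a1 were named after their values were seen.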

Additional observations from a re-analysis of the deposited data

How the results depend on the processing

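Over 1579 values of named members under the alternatives, 1458 kept their direction and call, 121 kept their direction and lost the call, and 0 reversed. The number of members was 84 with a minimum of 400 UMIs and 90 to 98 with a library left out. With each library left out in turn, calls ran from 62 to 74 against ILC2, 40 to 56 against dendritic cells, 18 to 32 against T or NK cells, 18 to 54 against stromal cells, 7 to 14 against mast cells, 2 to 7 against monocytes, and 6 to 38 between TLF-positive and TLF-negative macrophages; fewer samples enter each of these. Where this left a class with 1 library, its spread was assumed to be that of the other classes. Thinning cells to 1000 UMIs left 24 members to test and 13, 5, 2 and 6 calls against ILC2, dendritic, T or NK and stromal cells, 8 to test and 2 calls each against mast cells and monocytes, and 8 calls of 42 between the macrophage sets. DESeq2's test gave 21 calls against T or NK cells (15 higher, 6 lower), 12 against mast cells, 3 against monocytes (0 higher) and 12 between the macrophage sets. Without the replicate block there were 5 calls against monocytes, 8 between the macrophage sets, 62 against ILC2 (13 lower) and 36 against dendritic cells (8 lower); no other total moved by over 1.5 times. Barcodes from 500 UMIs gave 50 calls against T or NK cells, and fitting only the 2 classes gave 12 against mast cells. The causes of these shifts were not tested. DESeq2's size factors moved the median of all genes by -0.14 against stromal cells, -0.34 against mast cells and -0.20 against monocytes, and under 0.1 elsewhere; against monocytes 6 members were then higher and 3 lower. The stricter gate gave no value for T or NK cells and monocytes, a minimum of 20 cells none for T or NK, stromal and mast cells and monocytes, and removal of doublets none for stromal cells. Depth limits the small classes most: 45 of 117 members had at most 3 UMIs in T or NK cells, 20 in stromal cells and 10 in ILC2.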
